A study of Mus musculus with 2 samples.

Results

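The p53 target genes described here are 10 genes that carry a response to the tumour suppressor p53: Mdm2, Ccng1, Bax, Bbc3, Trp53inp1, Sesn2, Eda2r, Phlda3, Aen and Pmaip1. They were chosen by symbol, with earlier results of these data known, and all 10 were found among the 20002 genes of the table. Bulk RNA-seq had been performed on whole kidneys of control mice and of Regnase-2 (Reg-2) CKO mice, to learn what loss of this RNA-degrading enzyme from the proximal tubule does to kidney transcripts. Each group was represented by 1 library, so replicates could not be used to check any difference. Neither the labels nor the methods say if a library was made from 1 mouse or from several.

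Both groups were C57BL/6J mice on standard chow. No deleted allele is described for the CKO group: AAV9, a viral vector given through the tail vein, delivered an shRNA against Regnase-2 at 11 weeks of age. AAV9 is described as favouring the proximal tubule, and the promoter that drove the shRNA is not stated. The control is called a control shRNA in one place and an empty AAV9 vector in another. The RNA-seq methods give an age of 14 weeks, whereas the vector methods give harvest at 16 weeks.

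p53 is a transcription factor that is held at a low level by the ubiquitin ligase MDM2 and accumulates after DNA damage and other stress. It binds paired half-sites in DNA and raises genes that halt the cell cycle, repair DNA or trigger apoptosis, among them Mdm2 itself, which closes a feedback loop. In the kidney, p53 is best known from tubular cells after ischaemic or toxic injury.

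The targeted gene, Zc3h12b, which encodes Regnase-2 and is X-linked, was read 47 times in the control and 59 times in the CKO-labelled library. Scaled by the median gene ratio between the libraries, this gave a log2 ratio of -0.25 (95% Clopper-Pearson interval, -0.83 to 0.33), and it changed sign to 0.16 with equal library totals and to 0.42 with the values as deposited. At this depth no difference in the targeted mRNA was detectable. The label was therefore not checked by its target, and every direction below is that of the CKO-labelled library. Intervals of ratios cover counting error only.

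The promoters are shown because the members share p53 as a regulator. RefSeq promoter windows of GRCm38.p6, from 250 bases before to 50 bases after the start of transcription, were matched for 8 of the 10 members in 11 windows; Trp53inp1 and Pmaip1 had no entry. The windows were searched for the p53 half-site consensus of 10 bases, and for a pair of adjacent half-sites with up to 2 mismatches in 20 bases. Both consensus sequences are their own reverse complement, so one pass reads both strands. Of 32851 promoters, 8.36% held an exact half-site and 0.798% a full site. An exact half-site was found in 4 members, Mdm2, Ccng1, Bax and Aen, and a full site in 1 of them, Ccng1. Each stretch of 30 bases is written 5′ to 3′ on the strand of the gene, and capitals mark the bases that match the consensus.

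Mdm2 half-site, chr10:117710925-117710954, minus strand: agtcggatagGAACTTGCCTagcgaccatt

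Ccng1 full site with 1 mismatch, chr11:40755457-40755486, minus strand: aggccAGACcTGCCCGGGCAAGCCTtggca

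Bax half-site, chr7:45467080-45467109, minus strand: agcatatcccAGGCAAGCTTtgaacttgcg

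Aen half-site, chr7:78895927-78895956, plus strand: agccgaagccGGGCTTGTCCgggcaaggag

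Cdkn1a full site with 1 mismatch, chr17:29090923-29090952, plus strand: ttcagGAACATGTCTtGACATGTTCagccc

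The match in Mdm2 starts at position -186 from the start of transcription, that in Ccng1 at -195 and that in Bax at -201. The Aen match lies at -121 or 10, depending on which of the annotated starts is used. Cdkn1a, a p53 target outside the 10 genes, is shown for comparison, with its full site at -51 from one of its annotated starts; the window of the other start held no match. These matches are descriptions of letters and not measured binding. Eda2r, Phlda3, Bbc3 and Sesn2 had no match, which says only that these letters are not in these windows. For Phlda3 and the 3 windows of Bbc3, the bases just after the start were found in no GENCODE transcript of the gene, so these starts were not matched between the annotations.

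All 10 genes passed the filter of at least 10 scaled reads in 1 library, as did 17469 genes of the table. All 10 had a log2 ratio above 0, beside 51.5% of all genes, and 4 of the 10 were past 2-fold upwards in the CKO-labelled library, beside 13.4% of all genes. None was 2-fold lower, against 5.35% of all genes, and 2 were at least 4-fold higher, against 4.29%. The median log2 ratio of the members was 0.63, and that of all genes was 0.022. Because the members were chosen with earlier results of these data known, these contrasts are descriptions and were not tested. Among all genes, 2334 passed the threshold upwards and 934 downwards. Equal library totals gave 3784 and 437 instead, and the values as deposited gave 3574 and 131. Of the members, 5 and 7 were past 2-fold upwards under these settings. Equal totals also shifted the median of all genes to 0.44 and that of the members to 1.05; a single factor moves all genes nearly alike on this scale, so the members' distances from the median of all genes are almost fixed.

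**Figure D1:**
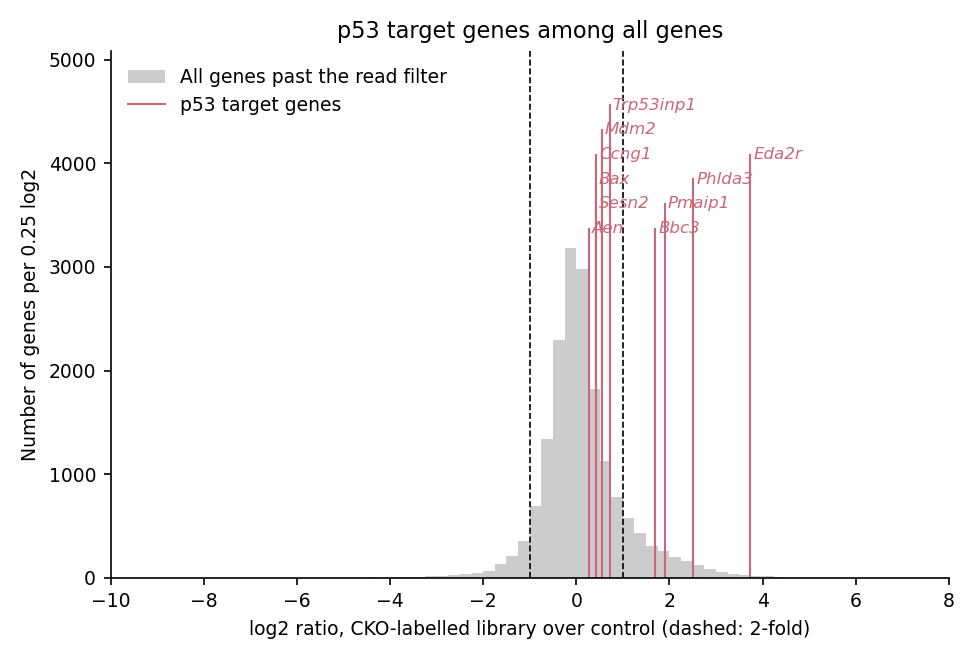
Histogram of the log2 ratio of the CKO-labelled library over control for the 17469 genes past the read filter, in steps of 0.25, with a red line for each p53 target gene and dashed lines at 2-fold. All 10 lines stand to the right of 0, from Aen at 0.28 to Eda2r at 3.74, and 4 lie beyond the 2-fold line.

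The share of genes at least 2-fold higher differed with depth. It was 27.6% for genes with 10 to 100 reads in the mean of both libraries, 12.4% for 100 to 1000 reads and 2.92% for 1000 to 10000 reads. These ranges were chosen after the values were seen. By mean reads, which include the CKO-labelled library, the members fell evenly into the upper ranges. Of the 5 with 100 to 1000 reads (Bbc3, Sesn2, Eda2r, Phlda3 and Pmaip1), 4 were at least 2-fold higher. Of the 5 with 1000 to 10000 reads (Mdm2, Ccng1, Bax, Trp53inp1 and Aen), 0 were, while the median log2 ratio of all genes in that range was -0.15. Grouped by control reads instead, Bbc3 and Eda2r moved to the range of 10 to 100 reads, where 25% of genes were at least 2-fold higher. The range of 100 to 1000 control reads then held 3 members, of which 2 were at least 2-fold higher, beside 8.84% of its genes.

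Mdm2, the ubiquitin ligase that marks p53 for degradation, lies on chromosome 10 from 117688875 to 117710758 in GRCm38. It was read 1474 times in the control and 3241 times in the CKO-labelled library. The log2 ratio was 0.55 with an interval from 0.46 to 0.64, or 1.47-fold. Of 5512 genes in its range of depth, 6.62% had a ratio as high or higher. Mdm4, its paralogue and partner in the restraint of p53, was read 2408 and 4385 times, with a log2 ratio of 0.28. Trp53 itself, at 729 and 1574 reads, had a log2 ratio of 0.52, close to that of Mdm2. Trp63, a p53 relative of stratified epithelia, had 40 and 81 reads, and the interval of its log2 ratio of 0.42 ran from -0.13 to 1.02. The mRNA of Trp53 does not report the amount or activity of the p53 protein, which was not measured here.

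Ccng1, which encodes cyclin G1 and lies on chromosome 11 from 40748552 to 40755311, was the most abundant member. Its reads numbered 8324 in the control, against 16765 in the CKO-labelled library, which is 0.43 as a log2 ratio. At this depth the interval was narrow, from 0.39 to 0.46. Ccng2, its paralogue, had a log2 ratio of 0.03 with an interval from -0.08 to 0.15, which does not meet that of Ccng1. Ccng1 alone gave 56.3% of the reads of all 10 members in the control and 50.3% in the CKO-labelled library. The summed reads of the members were 14793 and 33320, and their 1.5-fold difference after scaling is therefore weighted towards Ccng1.

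The BCL2 family supplied 3 members. Bax, whose protein opens pores in the outer mitochondrial membrane, lies on chromosome 7 from 45461697 to 45466898. Its reads, 1216 for the control and 2444 for the CKO-labelled library, gave a log2 ratio of 0.42 with an interval from 0.32 to 0.52. In the annotation an exon of Gm45808 overlaps Bax on the same strand, so reads in the overlap cannot be assigned between them. Bbc3, which encodes the BH3-only protein PUMA, lies on chromosome 7 from 16308393 to 16318205 and had 51 and 252 reads. Its 3.29-fold difference had a wide interval, from 2.43 to 4.54, at these low numbers. Pmaip1, which encodes the BH3-only protein NOXA and lies on chromosome 18, had 405 and 2288 reads and was 3.77-fold higher, with an interval from 3.39 to 4.20. The intervals of the BH3-only pair overlapped, and both lay above that of Bax.

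Other effectors were nearer to Bax. Bak1, its paralogue, was at 0.92 as a log2 ratio, from 369 and 1047 reads, and Bok at 0.55, from 722 and 1589 reads. Of 14 BCL2 family genes outside the members, 9 were higher and 5 lower in the CKO-labelled library, with 4 past 2-fold upwards, Bmf at 1.59 among them, and 0 downwards. The median was 0.61 on the log2 scale. The highest were Bcl2a1b at 3.34, Bcl2a1d at 2.73 and Bcl2a1a at 2.66, which are near-identical copies, so their division of reads is uncertain. Bid was the lowest at -0.52 (above 0, at 0.07, with the values as deposited), and Mcl1, the most abundant per length in the mean of both libraries, was at 0.59. Split by role with the members included, the median log2 ratio was 0.63 for 7 anti-apoptotic genes, 0.55 for 3 pore-forming effectors and 0.70 for 7 BH3-only genes. Bcl2a1a, Bcl2a1b and Bcl2a1d, with only 10, 10 and 12 control reads, were counted singly among the anti-apoptotic genes. The others of that role were Bcl2 at 0.63, Mcl1 at 0.59, Bcl2l1 at -0.10 and Bcl2l2 at -0.27, so its median leans on these copies.

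Eda2r, a receptor of the TNF receptor superfamily that binds ectodysplasin A2, lies on the X chromosome from 97333840 to 97377216. Only 29 reads came from the control, against 600 from the CKO-labelled library, the largest difference among the members. This was 13.8-fold, with an interval from 9.50 to 20.8, and ranked 60 of 17469 genes. Edar, the receptor for the other splice form of the ligand, was read 30 and 43 times, a log2 ratio of -0.06 with an interval from -0.77 to 0.66. The paralogous receptors thus had similar read numbers in the control and differed in the CKO-labelled library. Of 6 genes for the ligand and relatives of these receptors, 5 were higher, with a median of 0.74. Traf1 at 1.44, Edaradd at 1.31 and the ligand gene Eda at 1.19 were past 2-fold, and Traf6, the most abundant per length, was at 0.03.

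Phlda3, which encodes a pleckstrin homology protein that opposes AKT at the membrane, lies on chromosome 1 from 135766119 to 135769136. With 114 control reads and 984 from the CKO-labelled library, it was 5.75-fold higher with an interval from 4.74 to 7.05. Its paralogue Phlda1 was at a log2 ratio of 1.02, from 166 and 506 reads. Phlda2 was at 0.12, from 157 and 256 reads, with an interval that spanned 0. Both paralogues lay below Phlda3 beyond counting error.

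Trp53inp1, which encodes a nuclear and autophagy-linked cofactor of p53, lies on chromosome 4 from 11156431 to 11174379. Its 1272 and 3139 reads made a 1.65-fold difference, higher in the CKO-labelled library, with an interval from 1.54 to 1.76. Trp53inp2, its paralogue, went the other way at a log2 ratio of -0.28, although this became 0.14 with equal library totals and 0.31 with the values as deposited. Aen, a p53-induced exonuclease gene on chromosome 7 from 78895854 to 78911209, had the smallest ratio of the members. It had 1213 and 2214 reads and was 1.22-fold higher, with an interval from 1.13 to 1.31. Its paralogues Isg20 and Isg20l2, at log2 ratios of 0.13 and 0.15, had intervals that overlapped that of Aen.

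Sesn2, which encodes a leucine-binding restraint on mTORC1 and also answers to the stress factor ATF4, lies on chromosome 4 from 132492032 to 132510501. It was read 695 times in the control, against 1393 times in the CKO-labelled library, and the log2 ratio was 0.42 with an interval from 0.29 to 0.55. The paralogues Sesn1, at 0.35, and Sesn3, at 0.45, could not be told from it within counting error. Of 14 genes of the sestrin and mTORC1 branch, 3 were higher and 11 lower, with a median of -0.26, which became 0.16 with equal library totals and 0.33 with the values as deposited. Ddit4 was the highest at 0.89, Castor2 the lowest at -1.10, and Mtor, the most abundant per length, was at -1.01.

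Of 12 pairs of a member with a paralogue, the member had the higher log2 ratio in 9. The exceptions were Bax against Bak1, Bax against Bok, and Sesn2 against Sesn3. Intervals overlapped for Sesn2 with Sesn1 and Sesn3, Aen with Isg20 and Isg20l2, and Bax with Bok, so the counts do not settle these pairs. Sesn1 is itself among the other p53 targets listed below. The paralogues had a median log2 ratio of 0.21, and 1 of 12 was at least 2-fold higher. This was Phlda1, which fell just under 2-fold, to 0.98, with a pseudocount of 10.

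**Figure D2:**
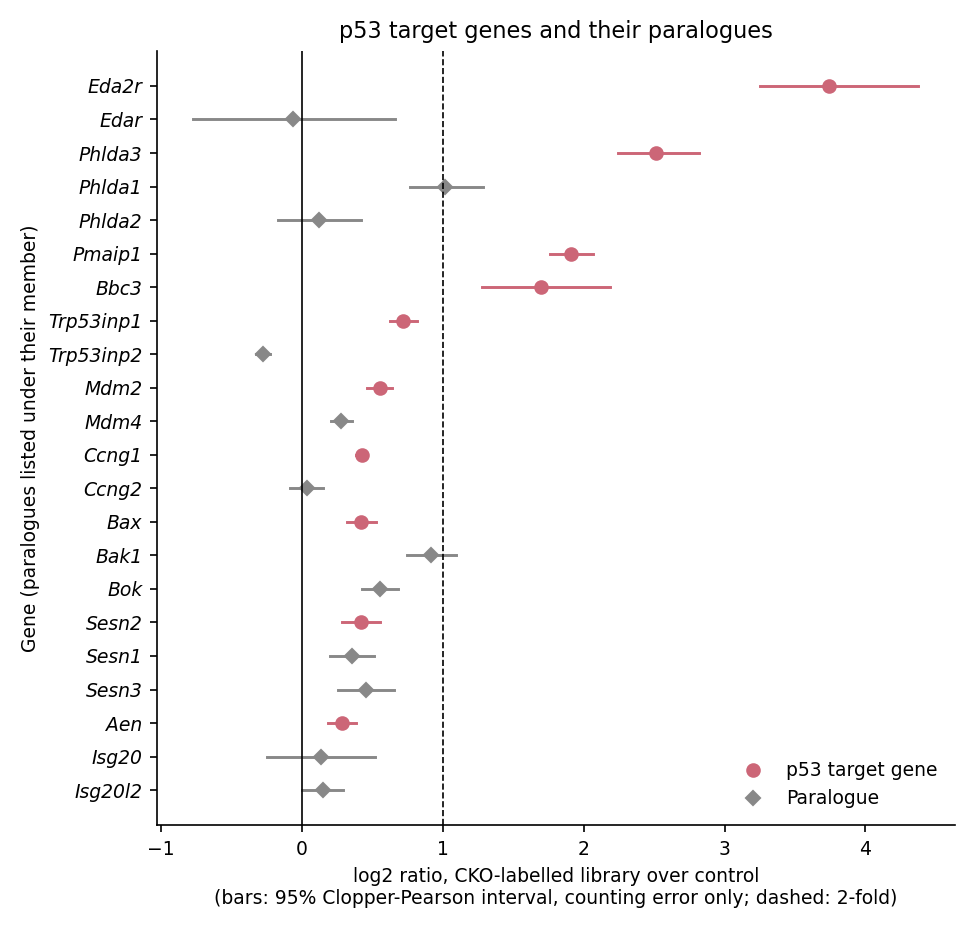
Log2 ratio of the CKO-labelled library over control for the 10 p53 target genes (red circles) and their 12 paralogues (grey diamonds, below their member), with 95% Clopper-Pearson intervals for counting error. Eda2r and Phlda3 stand clear of their paralogues, whereas Sesn2 and Aen overlap theirs.

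By size of the ratio the members ran from Eda2r and Phlda3 through Pmaip1, Bbc3, Trp53inp1, Mdm2, Ccng1, Bax and Sesn2 to Aen. In 6 of the 9 neighbouring pairs of this order the intervals overlapped, so the order within them is not settled by the counts. The 10 log2 ratios had an SD of 1.16 across genes, which is a spread between genes and not between animals. All 10 intervals lay above 0, and 4 lay above a log2 ratio of 1. The same counts were not made for all genes, so they do not set the members apart from other genes.

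The order by level was different. In RPKM (reads normalised to the longest transcript and to the library total), Ccng1 was at 61.0 in the control and 110 in the CKO-labelled library. Bax followed at 28.5 and 51 on this scale, and Mdm2 at 12.1 and 23.6. Eda2r had the lowest level in both, at 0.157 and 2.90. Pmaip1 passed Trp53inp1 and Aen between the libraries, from 3.82 to 19.2, and Phlda3 did the same from 2.04 to 15.7. Levels on this scale are set by library totals and not by the median gene ratio, so ratios read from them are larger than the scaled ones.

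**Figure D3:**
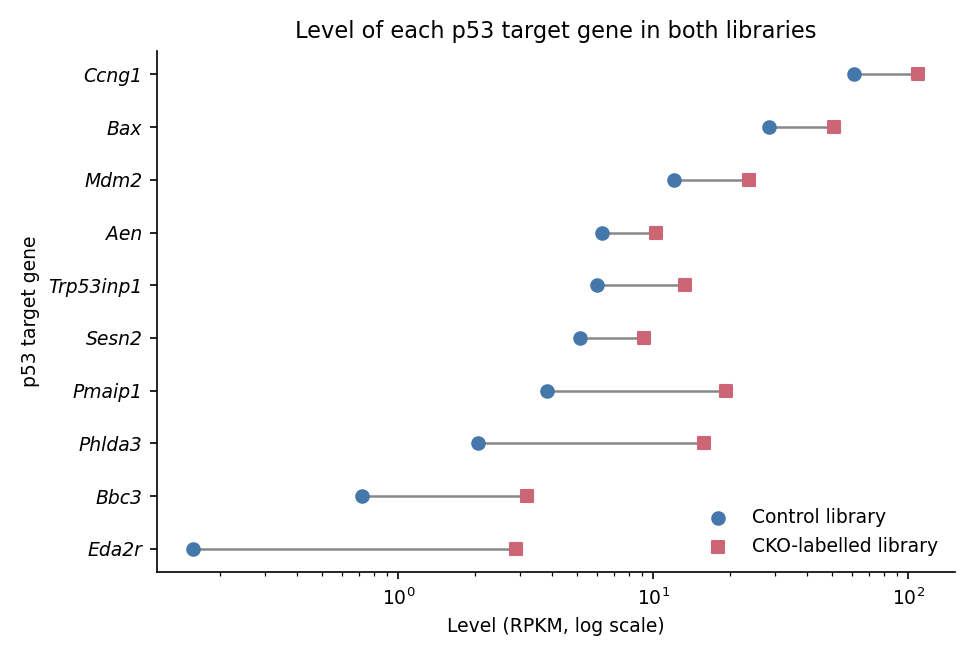
Level of each p53 target gene in the control library (blue circles) and the CKO-labelled library (red squares), in RPKM (reads normalised to transcript length and library total) on a log axis. Ccng1 is the highest in both libraries and Eda2r the lowest, and Eda2r has the longest line, from 0.157 to 2.90.

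Other genes of the p53 pathway did not all follow. Of 21 regulators and relatives of p53, 12 were higher and 9 lower, with a median of 0.079. Chek1, a checkpoint kinase of dividing cells, was the highest at 1.75. Ppp1r13l at 1.01 was the other gene past 2-fold, but it fell to 0.96 with a pseudocount of 10. Hipk2 was the lowest at -0.42 (0.16 with the values as deposited). Usp7, the most abundant per length, was at -0.19 (0.22 with equal library totals and 0.39 with the values as deposited). Trp73 and Cdkn2a were not analysed here.

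Of 38 other p53 targets, 26 were higher and 12 lower, with 10 at least 2-fold higher, 0 at least 2-fold lower and a median of 0.33. Cdkn1a, the p21 gene through which p53 halts the cell cycle, was read 167 times in the control and 2711 times in the CKO-labelled library. It was 10.8-fold higher, with an interval from 9.25 to 12.7. Lif at 3.86, Gdf15 at 3.42, Sfn at 3.33, Rprm at 2.62, Btg2 at 2.10 and Thbs1 at 2.05 were also past 4-fold on the log2 scale. Rprm had only 5 and 54 reads, and with a pseudocount of 10 its log2 ratio fell to 1.62, under 4-fold. Perp was the lowest at -0.61, and Rps27l, the most abundant per length, was at -0.0014, above 0 with equal upper quartiles, equal totals or the values as deposited. Lif, Gdf15 and Thbs1 are also known to answer to signals other than p53, and the part of p53 in their ratios was not tested.

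Of 13 caspase and apoptosome genes, 8 were higher and 5 lower, with a median of 0.065. Birc3, an inhibitor of apoptosis that also answers to NF-kB, was the highest at 1.87, and Cycs, the cytochrome c gene and the most abundant per length, was the lowest at -0.97. Of 15 genes of the integrated stress response, which shares Sesn2 with p53, 14 were higher, 4 of them at least 2-fold, with a median of 0.52. Atf3 at 3.55 and Asns at 2.16 (1.98 with a pseudocount of 10) were past 4-fold. Chac1 at 1.45 and Nupr1 at 1.08 were past 2-fold. Atf4, the most abundant per length, was the lowest at -0.01, above 0 with equal upper quartiles, equal totals or the values as deposited.

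Cell cycle genes known to be lowered when p53 is active were higher here. Of 14, all 14 were higher in the CKO-labelled library, 13 of them past 2-fold, and their log2 ratios had a median of 2.31. Cdk1 was the highest at 3.13, from 24 and 327 reads. Ccnb1 was at 3.03, Plk1 at 2.96, Top2a at 2.94, Bub1 at 2.83 and Aurkb at 2.61. These ratios came from only 16, 12, 55, 9 and 9 control reads, and the interval of Aurkb ran from 1.75 to 3.91. Of all genes with 10 to 100 control reads, 25% were at least 2-fold higher. Mki67 was 8.07-fold higher, and Ccnb2, the most abundant per length in the mean of both libraries, 4.09-fold. Mybl2 was the lowest at 0.49. Cyclin-dependent kinase inhibitor Cdkn1a and these proliferation genes were thus both higher in the same whole-kidney library, and whether they came from the same cells was not measured.

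The list medians also depended on the scaling. With equal library totals the median was 0.50 for the regulators and relatives of p53, 0.75 for the other p53 targets, 1.03 for the BCL2 family, 0.48 for the caspase and apoptosome genes, 0.63 for the paralogues, 1.15 for the EDA2R relatives, 0.94 for the integrated stress response and 2.72 for the cell cycle genes, where the median of all genes was 0.44. The values as deposited gave 0.64, 0.85, 1.17, 0.65, 0.79, 1.10, 0.97 and 1.89 in the same order, where the median of all genes was 0.59.

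**Figure D4:**
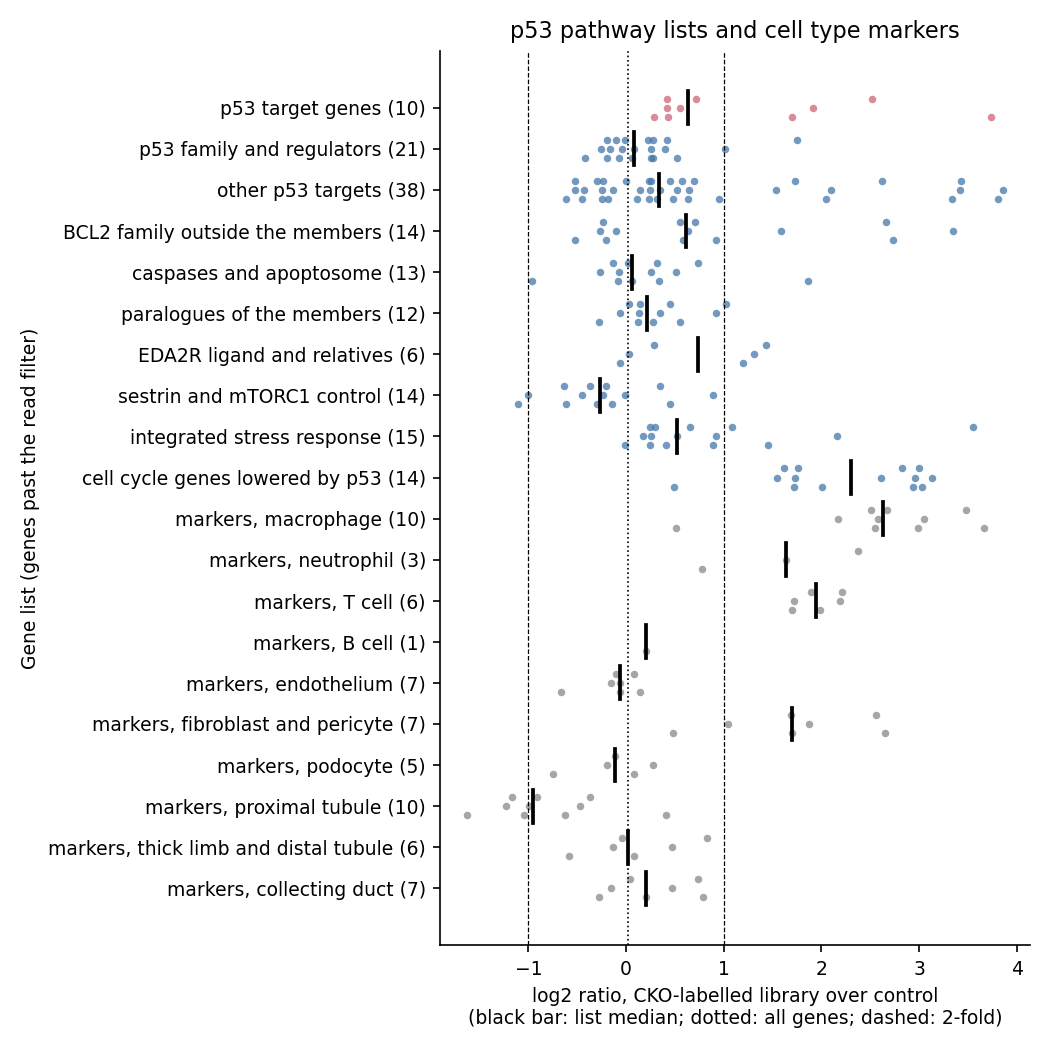
Log2 ratio of each gene in the p53 target genes (red), the other p53 pathway lists (blue) and the cell type marker lists (grey), with the number of genes in brackets, a black bar at each list median and a dotted line at the median of all genes. The cell cycle list, at a median of 2.31, and the macrophage markers, at 2.63, lie to the right of the p53 target genes at 0.63.

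Cell type markers differed between the libraries beside the p53 target genes. In whole kidney, a shift in the number of cells of a type and a shift in RNA per cell cannot be told apart. Of 10 proximal tubule markers, 9 were lower in the CKO-labelled library, with a median of -0.95 (-0.53 with equal library totals, -0.36 from the values as deposited), from Slc22a6 at -1.62 to Slc5a12 at 0.41, and Slc27a2, the most abundant per length in the mean of both libraries, at -1.23. Summed, they had 658139 control reads and 511110 in the CKO-labelled library, or 1.69% and 1.17% of all reads. Of 10 macrophage markers, 10 were higher, with a median of 2.63 and summed reads of 3805 and 25116. Lyz2, the most abundant per length in the mean of both libraries, was the highest at 3.66. Csf1r, the most abundant in the control, at 12.3 RPKM against 10.1 for Lyz2, was the lowest at 0.51. Fcgr1 at 3.48, Itgam at 3.05, C1qa at 2.99, C1qb at 2.67, Cd14 at 2.58, Adgre1 at 2.55, Mrc1 at 2.51 and Cd68 at 2.17 lay between Lyz2 and Csf1r.

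Of 7 fibroblast and pericyte markers, 7 were higher, with a median of 1.70 and summed reads of 6974 and 34529; Col1a1 was the highest at 2.65, Col3a1, the most abundant per length in the mean of both libraries, at 2.56 and Pdgfrb the lowest at 0.48. Of 6 T cell markers, 6 were higher, with a median of 1.94, from Cd4 at 1.70 to Cd3g at 2.22, Trbc2, the most abundant per length in the mean of both libraries, at 2.19, and summed reads of only 80 and 487. In all, 3 neutrophil markers were analysed, with a median of 1.64 and summed reads of 42 and 260, with Csf3r at 2.37, S100a9, the most abundant per length, at 1.64 and S100a8 at 0.77. Cd79b, the 1 B cell marker analysed, was at 0.21, from 23 and 40 reads. Cd3d, Ly6g, Cxcr2, Mpo, Retnlg, Cd79a, Ms4a1 and Pax5 were not analysed here. The part of these cell types in the ratios of the p53 target genes was not tested.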

How the data were processed

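The data were 2 RNA-seq libraries from whole kidney, 1 control and 1 labelled CKO, made with a stranded poly(A) kit with reads of 100 bp. By the submitters' notes, the authors aligned reads to mm10 with STAR 2.7.3a, counted with HTSeq and normalized with DESeq2. The deposited values were treated as a score: whole numbers that the authors call normalized counts, with minima of 35 and 51. They were taken as reads plus a constant per library, which is an inference, and 34 and 50 were subtracted. The control then held 38851231 reads and the CKO-labelled library 43588721, and the latter were scaled by 0.667, the median gene ratio of control over CKO. The ratio was log2((CKO + 1)/(control + 1)), genes needed 10 scaled reads in 1 library, and the threshold was 2-fold. With 1 library per group no test was made; 95% Clopper-Pearson intervals came from the CKO share of the summed reads.

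The members and lists were chosen with earlier results of these data known. Genes named were all members, Zc3h12b, Trp53, Trp63, Trp73, Mdm4, Cdkn1a, every paralogue, and of each list the highest, the lowest, the most abundant per length (mean of both libraries) and those past 4-fold. Ppp1r13l, Bmf, Eda, Edaradd, Chac1 and Nupr1 were named after their values were seen. Some genes that the rule names are not reported here. Genes were first grouped by control reads, then by mean reads, because control reads also enter the ratio; both groupings followed sight of the values. Alternatives were pseudocounts of 0.1 and 10, no filter or 50 reads, thresholds of 1.5-fold and 4-fold, 3 scalings, the column minimum subtracted, and the values as deposited. A planned search for a protein motif was not run. Transcript lengths came from GENCODE M21. Steps were tested on simulated data to which the same constants had been added, so the inference of a constant was not itself tested. Python 3.11.15, numpy 2.4.6, pandas 2.3.3, scipy 1.17.1 and matplotlib 3.10.9 were used.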

Additional observations from a re-analysis of the deposited data

How the results depend on the processing

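No paired analysis was possible because the labels give 1 library for each group. Each of the 10 members stayed above 0 under the 7 settings that alter a gene's ratio; of 70 such values, 55 lay within the counting interval and 15 outside it, all with equal library totals or the values as deposited. Equal totals gave the members a median of 1.05 and the values as deposited one of 1.21, while the median of all genes shifted to 0.44 and 0.59. With equal totals 5 members were past 2-fold, with the values as deposited 7, and at a 4-fold threshold 2 were. Genes past the threshold, higher and lower, numbered 3784 and 437 (equal totals), 3574 and 131 (values as deposited), 3801 and 2423 at 1.5-fold, and 749 and 166 at 4-fold; a filter of 50 reads left 617 lower. Grouped by control reads, the shares at least 2-fold higher were 25% (10 to 100 reads), 8.84% (100 to 1000) and 1.25% (1000 to 10000), so the last was less than in the grouping by mean reads. Settings for markers and the other named genes were chosen after seeing the data. With equal totals the sign turned for the sestrin and mTORC1 median (0.16), the endothelium (0.35) and podocyte (0.30) medians, Zc3h12b (0.16), Trp53inp2 (0.14), Edar (0.34), Usp7 (0.22), Rps27l (0.42), Atf4 (0.41), Eng (0.35) and Slc4a1 (0.15). With the values as deposited it turned for the same 3 medians (0.33, 0.52 and 0.48), Zc3h12b (0.42), Trp53inp2 (0.31), Edar (0.53), Usp7 (0.39), Rps27l (0.58), Atf4 (0.57), Eng (0.52), Slc4a1 (0.32), Hipk2 (0.16), Bid (0.070) and Calb1 (0.0071). With equal upper quartiles Rps27l (0.029) and Atf4 (0.019) turned. The thick limb and distal tubule median turned to -0.0050 with the median log2 ratio set to 0 and to -0.0020 with the column minimum subtracted. The B cell list had no gene left under a filter of 50 reads. These turns follow from the scaling factor or constant; depth limits genes with few reads, among the members Eda2r and Bbc3 most.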

Other observations

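Nephron segments other than the proximal tubule had marker medians near that of all genes. Of 6 thick limb and distal tubule markers, 3 were higher and 3 lower, with a median log2 ratio of 0.02 (0.44 with equal library totals); Umod, the most abundant, was at 0.47, Cldn16 the highest at 0.83 and Calb1 the lowest at -0.58. Of 7 collecting duct markers, 5 were higher, with a median of 0.20 (0.62 with equal library totals), from Slc4a1 at -0.27 to Aqp2, the most abundant per length, at 0.79. The 7 endothelial markers had a median of -0.07, from Kdr at -0.67 to Emcn at 0.14, with Eng, the most abundant per length, at -0.07. The 5 podocyte markers had a median of -0.11, with Synpo the highest at 0.28 and Podxl, the most abundant per length, at 0.08.

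The genes next to the members on their chromosomes had a lower median ratio than the members. Of 20 neighbours, 18 passed the read filter, with a median log2 ratio of 0.04, and 2 were at least 2-fold higher: Ccne2 beside Trp53inp1 at 2.44, with 14 and 121 reads, and Ccbe1 beside Pmaip1 at 1.05. Ccne2 encodes a cyclin of the G1/S transition. Both were named after their values were seen.

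Of 111 genes past the read filter with a full p53 site in a promoter window, 24.3% were past 2-fold upwards, beside 13.4% of all 17469 genes, and the median of all 111 log2 ratios was 0.15. The 17469 genes include some with no promoter window, such as Trp53inp1 and Pmaip1, and the 2 sets were not matched for depth. This count was made after the data were seen and was not tested. Among the 10 members the one with a full site, Ccng1, was 1.34-fold higher.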
